A study of Mus musculus with 15 samples.

Results

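Reprogrammed cells of mice fed DDC were compared, gene by gene, with biliary cells of untreated mice, to measure how far reprogrammed cells stand from the duct cell of an uninjured liver. The deposited table held 24493 genes in 15 libraries. The 13905 genes with a TPM of at least 1 in at least 3 of those libraries were tested, and 6 libraries entered the comparison, 3 of each group. Per the labels, every mouse received AAV-TBG-Cre at 4 weeks, a viral vector in which the hepatocyte promoter TBG drives Cre so that hepatocytes and their descendants can be marked. The mice of the reprogrammed group were put on DDC chow at 5 weeks of age and ate it for 4 weeks, while the mice of the untreated biliary group received the vector alone. The other 9 libraries, 3 each of DDC biliary cells, DDC hepatocytes and untreated hepatocytes from mice handled in the same 2 ways, served to place the genes of the comparison. By the title of the series, the reprogrammed cells derive from hepatocytes. Strain, reporter and sort markers are not given in the sources used here. Sex, and the age of the untreated mice at harvest, were not among the sample details used, so neither could be compared between the groups. Nor is it stated whether the libraries of a group came from separate mice, so a p-value speaks only of the spread among these libraries, which may be technical. No group of reprogrammed cells without DDC was analysed here, so DDC feeding and hepatocyte origin cannot be told apart in the differences below.

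Biliary epithelial cells, or cholangiocytes, line the bile ducts, carry a primary cilium that senses bile, and secrete fluid and bicarbonate into it. DDC is a porphyrin-inducing chow additive that blocks small ducts with pigment plugs and sets off the ductular reaction, in which duct-like cells multiply, release chemokines and remodel the matrix around the portal tract. Hepatocytes can take part in this reaction by acquiring duct markers such as Sox9, osteopontin and keratins, a conversion known to depend on YAP, Notch and TGF-beta signalling in mouse models.

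Values below are scaled TPM, a relative transcript abundance divided by 1 scale factor per library. Log2 differences are reprogrammed minus untreated biliary cells on the log2(scaled TPM + 1) scale, where changes of weakly expressed genes come out too small. The tests are limma's, with Benjamini-Hochberg adjustment over all 13905 genes. A gene rose or fell, or was called, at an adjusted p under 0.05 together with a log2 difference of 1 or more in size. Read totals cannot be had from TPM, and the depth of the libraries is unknown. The number of genes at 1 TPM or more was 13233, 12553 and 12988 in reprogrammed libraries 1, 2 and 3, against 12850, 13076 and 13097 in untreated biliary libraries 1, 2 and 3. In bulk samples, fewer cells of a type and less RNA per cell cannot be told apart.

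Marker genes were examined first. Mmp7, a matrix metalloproteinase of injured epithelium (chromosome 9, 7692090 to 7699585, GRCm38), measured 376, 427 and 434 in reprogrammed cells, against 28.4, 18.2 and 25.8 in untreated biliary cells. Cd44, the hyaluronan receptor (chromosome 2, 102811141 to 102901665), measured 144, 97.1 and 139 in reprogrammed cells and 2.77, 3.01 and 3.89 in untreated biliary cells. Ccl2, the monocyte-attracting chemokine (chromosome 11, 82035571 to 82037453), measured 366, 187 and 409 in reprogrammed cells and 0.561, 1.1 and 0.527 in untreated biliary cells. None of these 3 genes overlapped between the groups. Their log2 differences were 4.06 (SE 0.17, adjusted p = 1.44e-08) for Mmp7, 4.90 (SE 0.30, adjusted p = 3.35e-07) for Cd44 and 7.48 (SE 0.51, adjusted p = 7.62e-07) for Ccl2. The ratio of group means was 17.1 for Mmp7, 39.3 for Cd44 and 439 for Ccl2. These genes do not set reprogrammed cells apart from the other DDC groups and cannot check their label. Reprogrammed minus DDC biliary cells gave log2 differences of -1.21, -0.77 and -0.16 for Mmp7, Cd44 and Ccl2. DDC minus untreated hepatocytes gave 1.64, 2.24 and 5.47.

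The classical duct markers were present in both groups and differed by less. Krt7, a duct keratin (chromosome 15, 101411043 to 101430313), measured 141, 166 and 214 in reprogrammed cells and 83.7, 99.4 and 133 in untreated biliary cells. The groups did not overlap, but the log2 difference of 0.72 (adjusted p = 0.0266) stayed under the size needed for a call. Krt19, the keratin most used to mark ducts, was at 243, 234 and 314 in reprogrammed cells, against 364, 371 and 573 in untreated biliary cells (log2 difference -0.70, adjusted p = 0.0291). Epcam, a surface adhesion molecule of duct cells, averaged 265 ± 45.6 in reprogrammed and 291 ± 13.2 in untreated biliary cells (SD, n = 3 each) and overlapped between them (log2 difference -0.15, adjusted p = 0.352). Spp1, which encodes osteopontin, was at 9625, 3623 and 6704 in reprogrammed cells and 9588, 9301 and 10679 in untreated biliary cells, again with overlap (log2 difference -0.68, adjusted p = 0.182). Sox9, the duct and progenitor transcription factor, averaged 67 ± 13.9 in reprogrammed and 121 ± 11.2 in untreated biliary cells, a log2 difference of -0.85 (adjusted p = 0.0117). DDC hepatocytes averaged 1.5 for Krt19, 1.92 for Epcam and 0.429 for Krt7, so they nearly lacked these transcripts, which the reprogrammed libraries held. Spp1 and Sox9 were not lacking there, both called higher in DDC than in untreated hepatocytes (log2 differences 5.84 and 1.44). The reprogrammed means were 1588% of DDC hepatocytes for Spp1 and 692% for Sox9.

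Hepatocyte transcripts were present in both groups as well. Alb, which encodes albumin, was at 15174, 56023 and 29965 in reprogrammed cells and 25702, 20245 and 20898 in untreated biliary cells (log2 difference 0.41, adjusted p = 0.624). Over 90 genes of 5 hepatocyte lists (plasma proteins, urea cycle, P450 enzymes, fatty acid oxidation and gluconeogenesis), the median level in reprogrammed cells was 41.1% of that in DDC hepatocytes. The same genes in untreated biliary cells stood at a median of 19% of untreated hepatocytes, with quartiles of 17.3% and 22.1%. By library, the reprogrammed medians were 26.6%, 60.2% and 36.3% for libraries 1, 2 and 3, so library 2 held the most hepatocyte transcripts. Whether these transcripts come from the sorted cells, from hepatocytes among them or from free RNA was not tested. For some genes that hepatocytes express at high levels, the levels in DDC hepatocytes, untreated hepatocytes or both are therefore given below.

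Of the 13905 genes, 776 rose in reprogrammed cells, which is 5.58% of those tested, and 740 fell, which is 5.32%, so 10.9% were called in either direction. The groups did not overlap at 766 of the genes that rose and 736 of those that fell. Over all tested genes they did not overlap at 7427, or 53.4%, so a lack of overlap alone sets no gene apart. TPM as deposited, with no scale factor, gave 649 higher and 1217 lower genes, so the share of calls that were higher was 34.8% there and 51.2% after scaling. The median gene differed by -0.21 on the log2 scale as deposited and by -0.02 after scaling, and directions below are relative to the scaled median.

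Of the 4 other groups, untreated biliary cells stood second nearest to the reprogrammed cells. The root mean square of the log2 difference of group means over all tested genes was 0.526 from DDC biliary cells, 0.855 from untreated biliary cells, 1.03 from DDC hepatocytes and 1.5 from untreated hepatocytes. Across genes, which are not independent replicates, single reprogrammed libraries correlated with single untreated biliary libraries at 0.8694 to 0.9023, with DDC biliary libraries at 0.902 to 0.9586 and with each other at 0.9342 to 0.9631. The calls in either direction numbered 488 between reprogrammed and DDC biliary cells, 3.51% of the genes, with 386 higher (2.78%) and 102 lower (0.734%). They numbered 2708 against DDC hepatocytes and 4596 against untreated hepatocytes, 19.5% and 33.1%. DDC biliary against untreated biliary cells gave 1449 calls, 10.4%. These comparisons share libraries with each other and are set side by side only as values.

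**Figure D1:**
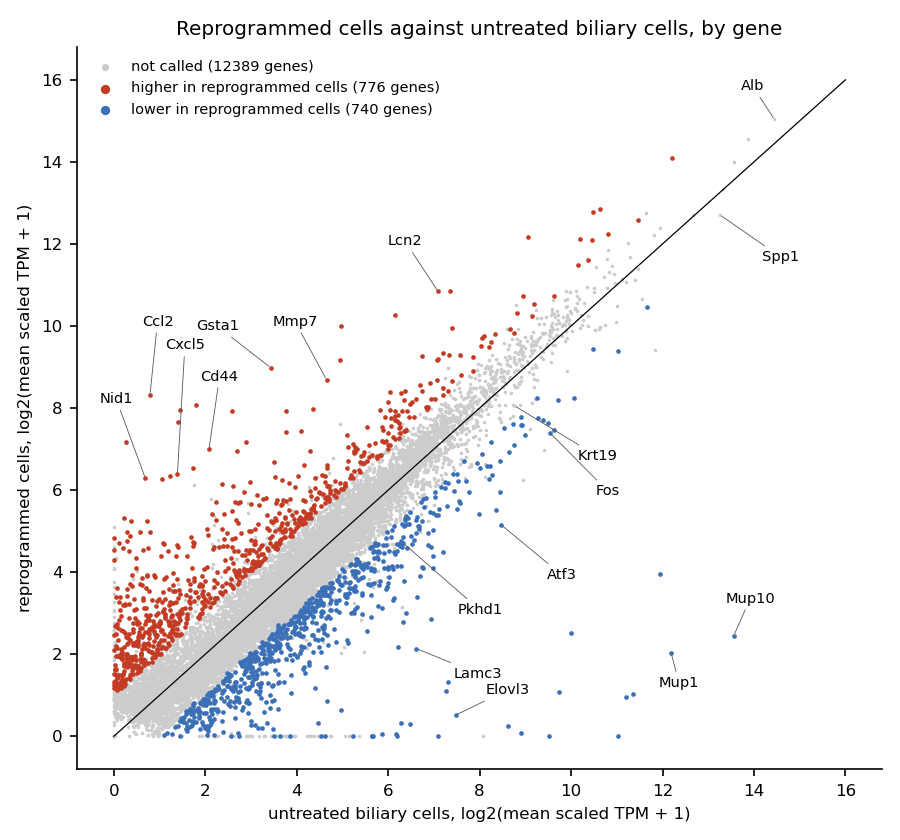
Group means of the 13905 tested genes as log2(mean scaled TPM + 1), reprogrammed cells on the vertical axis and untreated biliary cells on the horizontal axis, with the line of equal levels. Red points are the 776 genes called higher and blue points the 740 called lower in reprogrammed cells. Ccl2, Nid1 and Cd44 lie near the left edge at high levels in reprogrammed cells, the Mup genes lie far to the lower right, and Alb, Spp1 and Krt19 lie near the line.

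The 12 genes with the largest rises, among those at 10 scaled TPM or more in reprogrammed cells and with no overlap, were Ccl2, Gm3776, Ly6d, Slpi, Sult1e1, Gsta1, Nid1, Mt2, Spink1, Cpe, Cxcl5 and Cd44. They hold 2 chemokines, secreted protease inhibitors (Slpi, Spink1), glutathione transferase genes (Gsta1, Gm3776), a metallothionein (Mt2), the estrogen sulfotransferase Sult1e1, the basement membrane linker nidogen (Nid1), the prohormone-processing enzyme carboxypeptidase E (Cpe), the surface protein Ly6d and Cd44. Nid1 (chromosome 13, 13437551 to 13512269) measured 52.6, 92.2 and 86.4 in reprogrammed cells and 0.646, 0.55 and 0.637 in untreated biliary cells. Its log2 difference was 5.56 (SE 0.24, adjusted p = 1.44e-08), with the group means 126 apart as a ratio. Slpi, the secretory leukocyte protease inhibitor (chromosome 2, 164354070 to 164389095), measured 235, 135 and 238 in reprogrammed cells and 1.18, 0.978 and 2.81 in untreated biliary cells. Both genes were near the floor in every untreated biliary library. Cpe was at 78.3, 58.7 and 105 in reprogrammed cells, against 1.08, 1.9 and 1.1 in untreated biliary cells (log2 difference 5.09, SE 0.24, adjusted p = 2.85e-08). Sult1e1 was uneven among the reprogrammed libraries, at 3.55, 269 and 154, against 0.154, 0 and 0.456 in untreated biliary cells (adjusted p = 0.0334). Its call was lost under 9 of 23 alternative settings. Of the DDC hepatocyte mean, the reprogrammed mean was 66.7% for Nid1, 57.2% for Slpi, 206% for Cpe and 37.7% for Sult1e1.

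Chemokines and targets of NF-kB, the transcription factor that answers TNF and interleukin signals, formed the list with the largest share of risen genes. Of 25 listed genes tested, 18 rose and 0 fell, with a median log2 difference of 1.77, against -0.02 over all genes. Among ligands for neutrophil receptors, Cxcl5 (chromosome 5, 90759360 to 90761624) was at 102, 101 and 44.8 in reprogrammed cells and 2.68, 1.41 and 0.766 in untreated biliary cells. Cxcl2 was at 25.7, 23.3 and 17.6 in reprogrammed cells, against 0.608, 0.392 and 0.654 in untreated biliary cells. Cxcl1 was at 170, 144 and 168 in reprogrammed cells and 25.4, 30.2 and 44.2 in untreated biliary cells. No library of either group overlapped for these 3 genes, whose log2 differences were 4.97, 3.89 and 2.27. Ccl20, the ligand of Ccr6 on lymphocytes and dendritic cells, was uneven, at 51.4, 8.14 and 16.4 in reprogrammed cells and 0.142, 0 and 0.0763 in untreated biliary cells (adjusted p = 0.000112).

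The rest of the list ran from ligands and cytokines to adhesion molecules and feedback inhibitors. Tnf, which encodes the cytokine TNF, was at 14, 12.9 and 14 in reprogrammed cells and 0.89, 0.99 and 0.747 in untreated biliary cells, a log2 difference of 2.97 (SE 0.13, adjusted p = 2.01e-08). The macrophage growth factors Csf1 and Il34, ligands of the receptor Csf1r, had log2 differences of 2.66 and 1.63. The leukocyte adhesion molecule Vcam1 averaged 172 ± 31 in reprogrammed and 16.2 ± 3.88 in untreated biliary cells (SD, n = 3 each), and Icam1 averaged 80.4 ± 10.8 in reprogrammed and 15.3 ± 4.44 in untreated biliary cells. Tnfaip3, which encodes the feedback inhibitor A20, and the NF-kB subunit Relb rose by 1.56 and 1.25. Lcn2, which encodes the iron-siderophore binding protein lipocalin (chromosome 2, 32384633 to 32388252), was at 1931, 1867 and 1729 in reprogrammed cells and 135, 96.7 and 173 in untreated biliary cells. The other risen members were Ccl5, Ccl7, Cxcl14, Cxcl16 and Cx3cl1, with log2 differences between 1.27 and 3.12. Cxcl10, which interferon also induces, was at 11.5, 21.2 and 6.38 in reprogrammed cells and 5.64, 4.56 and 7.15 in untreated biliary cells, with overlap (adjusted p = 0.328).

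The promoters of 3 risen members are printed because the list is named for a factor with a known DNA motif. They are the 160 bases before the RefSeq start on GRCm38.p6, 5′ to 3′ on the gene's strand, with matches to GGGANNNNCC on either strand in capitals: chr5:90891085-90891244 for Cxcl1, chr5:90903739-90903898 for Cxcl2 and chr1:83116606-83116765 for Ccl20, all on the plus strand.
Cxcl1: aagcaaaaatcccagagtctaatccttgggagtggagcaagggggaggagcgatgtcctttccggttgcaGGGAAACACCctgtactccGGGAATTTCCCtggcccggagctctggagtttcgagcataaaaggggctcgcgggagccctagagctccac
Cxcl2: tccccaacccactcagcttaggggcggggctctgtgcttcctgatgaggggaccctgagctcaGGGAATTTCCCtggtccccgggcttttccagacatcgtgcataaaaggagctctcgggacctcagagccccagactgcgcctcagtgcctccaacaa
Ccl20: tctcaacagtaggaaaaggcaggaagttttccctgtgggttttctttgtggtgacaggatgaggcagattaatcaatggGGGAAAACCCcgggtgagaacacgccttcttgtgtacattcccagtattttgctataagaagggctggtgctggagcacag

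The long capital run in Cxcl1 and in Cxcl2 is a pair of overlapping matches, 1 on each strand. In the 250 bases before the start, 9 of the 17 list members with a RefSeq promoter held a match, among them 5 of the 10 that rose. The same motif was in 17.6% of all 32851 promoters and in 26.2% of the 10618 tested genes with a promoter. A match is a description of the letters in this window.

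**Figure D2:**
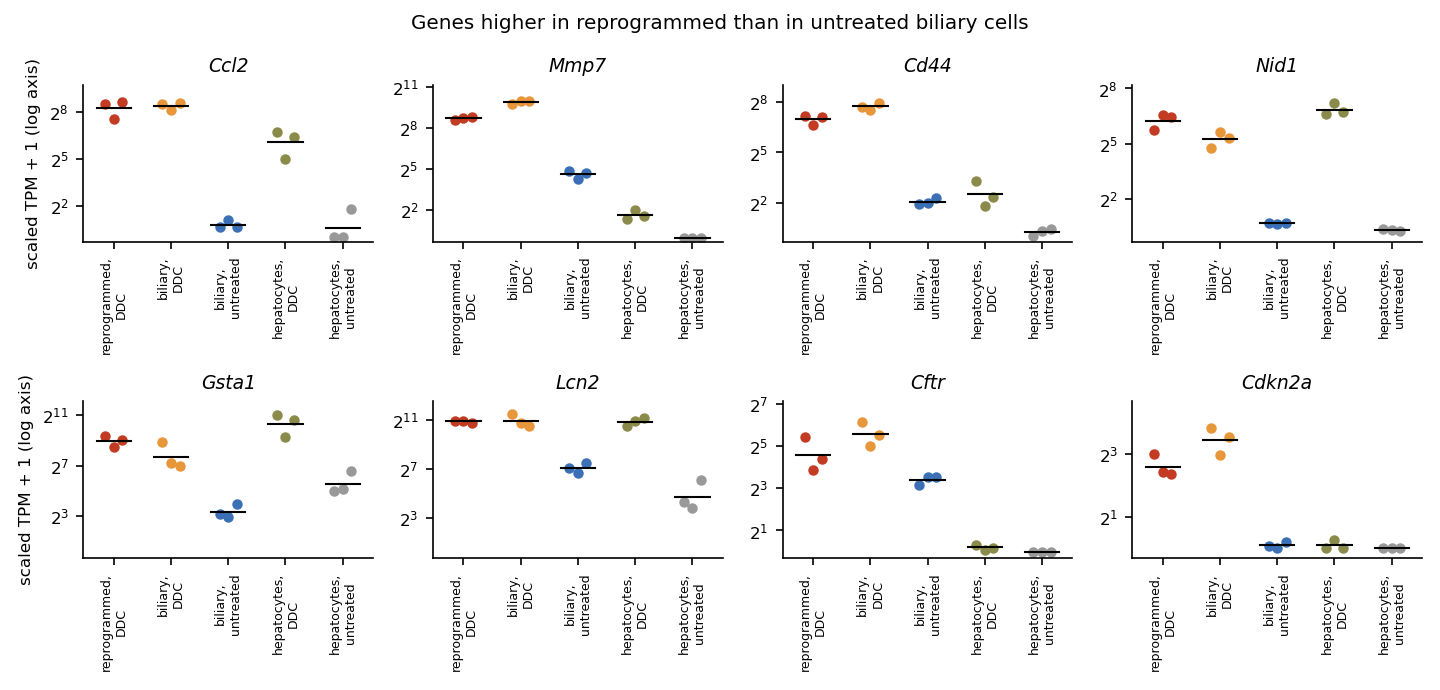
Scaled TPM + 1 on a log axis for 8 genes called higher in reprogrammed than in untreated biliary cells, 1 point per library (n = 3 per group), with the geometric mean as a bar. Ccl2, Mmp7, Cd44 and Cdkn2a are also high in DDC biliary cells, whereas Gsta1 has its highest mean in DDC hepatocytes, with overlap with reprogrammed cells, and reprogrammed library 1 carries the highest Cftr of its group.

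Some enzymes that cut the matrix, and some of their inhibitors, were higher. Of 19 matrix proteases and inhibitors tested, 8 rose, 0 fell and 11 were not called (median log2 difference 0.84). Both plasminogen activators were near 0 in untreated biliary cells. Plat, the tissue-type activator, was at 26.6, 24.4 and 40.6 in reprogrammed cells, against 0.169, 0.479 and 0.819 in untreated biliary cells (log2 difference 4.39, SE 0.39, adjusted p = 7.09e-06). Plau, the urokinase type, was at 12.9, 28.3 and 25 in reprogrammed cells and 0.243, 0.215 and 0.301 in untreated biliary cells (log2 difference 4.13, SE 0.34, adjusted p = 3.56e-06). Plaur, the receptor gene for the urokinase type, rose too, by 1.89. The metalloproteinase inhibitor Timp1 averaged 13.5 ± 4.62 in reprogrammed and 0.542 ± 0.477 in untreated biliary cells (SD, n = 3 each). Timp3 and the membrane protease gene Adam8 rose as well, with log2 differences of 1.11 and 2.44.

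The TGF-beta list, the pathway that drives scarring and epithelial plasticity, had 7 of 21 genes higher and 2 lower (median 0.69). Its largest rise was Ltbp2, a microfibril protein of the latent TGF-beta binding family (chromosome 12, 84783212 to 84876532), at 34.6, 27.4 and 48.6 in reprogrammed cells and 0.227, 0.154 and 0.482 in untreated biliary cells. Its log2 difference was 4.85 (SE 0.24, adjusted p = 4.81e-08). The ligand gene Tgfb1 averaged 8.79 ± 2.13 in reprogrammed and 2.11 ± 0.252 in untreated biliary cells. Among genes for its activators, Thbs1 and the integrin chain Itgav rose by 1.66 and 1.41, and the receptor gene Tgfbr2 rose by 1.74. Itgb8, a partner of the Itgav chain that is not in this list, fell, with values given below among the surface receptors. The members that fell were Ltbp4, at 4.44, 2.41 and 5.71 in reprogrammed cells against 16.7, 17.4 and 26.5 in untreated biliary cells, and the co-receptor gene Tgfbr3 (log2 difference -1.23). Within this pathway, latent binding proteins thus differed in sign, with Ltbp1 and Ltbp2 higher and Ltbp4 lower.

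Components of the matrix itself gave calls in both directions. Of 20 collagen, laminin and nidogen genes, 8 rose and 1 fell (median 0.58), and the count of risen genes was 2 without reprogrammed library 3, 4 without untreated biliary library 1 or 2, and 5 with TPM as deposited or with quantile normalization. Besides Nid1, the basement membrane chains Col4a1 and Col4a2 averaged 77.3 ± 13.4 and 43.3 ± 8.46 in reprogrammed cells, against 36.8 ± 3.38 and 20.1 ± 2.63 in untreated biliary cells. Lamb3, a laminin chain of anchoring contacts, rose by 2.12, while Lamb2 fell to 35.5, 12.5 and 26.9 in reprogrammed cells, against 72.9, 77.5 and 73.8 in untreated biliary cells. Lamc3, another laminin chain, chosen after its values were seen, showed a larger drop, with 6.54, 1.53 and 2.13 in reprogrammed cells and 106, 93.3 and 91.7 in untreated biliary cells (log2 difference -4.64, SE 0.41, adjusted p = 6.79e-06). The fibrillar collagen genes Col1a1, Col1a2 and Col3a1 rose but averaged only 2.8, 3.04 and 6.89 in reprogrammed cells, and the call for Col3a1 was lost under 12 of 23 settings. Of the stellate cell and fibroblast markers, 3 of 12 rose and 1 fell, with 1 rise without reprogrammed library 3. Those that rose were Col1a1, Col3a1 and Rgs5, and the defining markers Des, Pdgfrb and Lrat stayed under 1.1 in every library of both groups. Dcn, a fibroblast proteoglycan, was at 3.85, 12.1 and 32.5 in reprogrammed and 10.3, 9.96 and 5.73 in untreated biliary cells, so reprogrammed library 3 held the most. The part of fibroblast RNA in the collagen values was not tested.

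Surface receptors went both ways, with 5 of 23 higher and 2 lower (median 0.22), and 1 lower without reprogrammed library 2 or 3. The collagen-binding integrin chain Itga2 was at 22.5, 16 and 21.2 in reprogrammed cells and 1.62, 1.45 and 1.59 in untreated biliary cells. Itgb8, a partner of the integrin alpha-v chain, fell to 11.2, 8.67 and 8.83 in reprogrammed cells, against 31.5, 33.6 and 34.6 in untreated biliary cells. Neither direction showed overlap between the groups. Ly6a, which encodes the Sca-1 antigen, also fell (adjusted p = 0.0219), and its untreated biliary values of 47.7, 31.2 and 138 were spread widely.

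Genes of squamous and injured epithelium rose in 6 of 12 cases and fell in none (median 1.22). Ly6d, a marker of stratified epithelium (chromosome 15, 74762056 to 74763620), was at 429, 81.9 and 228 in reprogrammed cells, against 1.94, 0.555 and 2.66 in untreated biliary cells. Sprr1a, a cornified envelope precursor, was at 98.6, 18 and 111 in reprogrammed cells and 0.866, 0.604 and 1.71 in untreated biliary cells. For both genes reprogrammed library 2 was the lowest of its group and still above every untreated biliary library. The trefoil factor Tff3, the keratin gene Krt20 and the glycoprotein gene Gpnmb completed the set beside Lcn2. Of the DDC hepatocyte mean, the reprogrammed mean was 44.7% for Ly6d, 49.6% for Sprr1a, 45.2% for Tff3 and 43.75% for Gpnmb. It was 99% for Lcn2 and 294% for Krt20. The part of hepatocyte content in these values was not tested. Among the simple epithelial keratins, Krt8 and Krt18 were under the size of a call, with log2 differences of 0.85 each. In the list of 6 such keratins 1 gene, Krt20, rose, and 3 rose without untreated biliary library 3.

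S100 proteins and annexins, calcium-binding proteins that many injured epithelia induce, had 9 of 22 genes higher and 2 lower (median 0.79). S100a6 was at 181, 208 and 343 in reprogrammed cells, against 4.98, 5.74 and 27 in untreated biliary cells (log2 difference 4.50, SE 0.59, adjusted p = 0.000142). S100a11, already abundant in untreated biliary cells at 562 ± 57.7, averaged 1206 ± 205 in reprogrammed cells. Anxa1, which encodes the anti-inflammatory annexin, rose by 3.03. The annexin genes Anxa13 and Anxa9 fell, Anxa13 to 106, 52.8 and 84.3 in reprogrammed cells, against 280, 300 and 349 in untreated biliary cells. S100a8 and S100a9, the calprotectin subunits that neutrophils store, rose to means of 12 and 7.44. The neutrophil markers Mpo and Elane were under 0.2 in every library of both groups and Ly6g stayed between 0.182 and 0.732. Csf3r averaged 0.505 in reprogrammed and 0.284 in untreated biliary cells, and Cxcr2 averaged 1.4 and 1.91. Retnlg, Camp and Ngp were detected in reprogrammed but not in untreated biliary cells. The part of neutrophil RNA in these values was not tested.

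Targets of NRF2, the factor that answers oxidants and electrophiles, rose in 13 of 23 cases with none lower (median 1.07). Gsta1, a glutathione transferase (chromosome 9, 78230656 to 78242684), was at 645, 345 and 526 in reprogrammed cells, against 7.9, 6.51 and 14.9 in untreated biliary cells (log2 difference 5.59, SE 0.59, adjusted p = 2.85e-05). Gm3776 is a close relative of Gsta1, and the way reads were divided between them is uncertain. Nqo1, the quinone reductase, was at 21.7, 49.3 and 41.1 in reprogrammed cells, against 4.85, 4.89 and 6.38 in untreated biliary cells. Srxn1, Gstm3 and Gsta2 rose by 2.54, 3.61 and 3.60, and Gclm, a subunit of glutathione synthesis, by 1.07. Hmox1, which encodes heme oxygenase, averaged 32.3 ± 11.4 in reprogrammed and 4.15 ± 1.29 in untreated biliary cells. Hepatocytes held most of these transcripts at higher levels. Gsta1 averaged 1420 in DDC hepatocytes, and the reprogrammed mean was 35.6% of that, for Gstm3 37.6% and for Nqo1 46.3%, beside the median of 41.1% over the hepatocyte lists. Gstm1, the most abundant member, averaged 4433 ± 1333 in reprogrammed and 1180 ± 119 in untreated biliary cells, and 10209 in DDC hepatocytes. With hepatocyte genes left out of the table, defined by a call against biliary cells within the untreated mice, 2 members rose, because most members were then no longer tested. Hmox1 stood at 79.4% of the DDC hepatocyte mean, and DDC biliary cells averaged 32.3 for it too. The part of hepatocyte content in this list was not tested.

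Metallothioneins, which bind zinc and copper, were high but uneven. Mt2 was at 198, 1564 and 1290 in reprogrammed cells and 8.65, 7.19 and 75 in untreated biliary cells, with no overlap (log2 difference 5.34, SE 1.26, adjusted p = 0.00668). Mt1 was uneven in the same way, at 353, 1827 and 1506 in reprogrammed cells and 27.8, 42.5 and 139 in untreated biliary cells. Of the DDC hepatocyte mean, the reprogrammed mean was 64.3% for Mt2 and 60.45% for Mt1. Mt2 was also called higher in DDC than in untreated hepatocytes (log2 difference 4.33). The part of hepatocyte content in these values was not tested.

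The acute phase list, plasma proteins that the liver releases in inflammation, had 13 of 20 genes higher and 1 lower (median 1.47). Hp, which encodes haptoglobin, was at 4747, 9386 and 6943 in reprogrammed cells, against 1781, 1149 and 1365 in untreated biliary cells (log2 difference 2.26, SE 0.33, adjusted p = 0.000295). Orm2, an orosomucoid gene, was at 222, 164 and 128 in reprogrammed cells and 13.7, 5.96 and 17.9 in untreated biliary cells. Hamp, which encodes the iron hormone hepcidin, was at 1768, 7375 and 4554 in reprogrammed cells, against 733, 627 and 240 in untreated biliary cells. None of the 3 overlapped between the groups. Crp fell, at 227, 182 and 177 in reprogrammed cells and 448, 431 and 383 in untreated biliary cells. These are hepatocyte transcripts, and the reprogrammed means were 43.8% of DDC hepatocytes for Hp, 37.9% for Orm2 and 37.8% for Hamp. Reprogrammed library 2, which held the most hepatocyte transcripts, was the highest for Hp and Hamp, and without it 8 members rose. Members of the Saa and Orm gene families are near-identical and their single values are uncertain. The part of hepatocyte content in the acute phase values was not tested.

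Other hepatocyte lists gave fewer calls. Of 20 plasma protein genes, 5 rose (Ahsg, Fga, Fgb, Hpx and Trf) and 0 fell, a count that was 1 without reprogrammed library 2 or untreated biliary library 2, 2 without reprogrammed or untreated biliary library 3, and 9 without reprogrammed library 1. Hpx, which encodes the heme scavenger hemopexin, averaged 7332 ± 3431 in reprogrammed and 1576 ± 343 in untreated biliary cells. The reprogrammed mean of Hpx was 40.8% of the DDC hepatocyte mean. Of 19 P450 enzymes, 4 rose and 2 fell, with 2 rises without reprogrammed library 2 or untreated biliary library 2 and 1 fall without reprogrammed library 3. The largest rise was Cyp2b10, a target of the xenobiotic receptor CAR (chromosome 7, 25897620 to 25926624), at 49.3, 478 and 205 in reprogrammed cells and 3.71, 4.74 and 6.59 in untreated biliary cells. Its reprogrammed mean was 37.3% of the DDC hepatocyte mean. The urea cycle list had 1 rise in 20 (Gldc, lost under 10 of 22 settings), fatty acid oxidation had no call in 20, and gluconeogenesis had 1 rise (Pcx) and 2 falls (G6pc and Ppargc1a) in 15. The hepatocyte transcription factor Hnf4a was at 103, 191 and 149 in reprogrammed cells and 99.6, 79.7 and 73.1 in untreated biliary cells, with no overlap and a log2 difference of 0.77 (adjusted p = 0.0143), which is under the size of a call. Cdh2, the N-cadherin of hepatocytes, rose with little spread, at 49, 46.7 and 51.1 in reprogrammed cells and 19.5, 19.9 and 19.7 in untreated biliary cells (log2 difference 1.27, SE 0.09, adjusted p = 1.08e-06).

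Fetal liver genes rose in 5 of 11 cases, with none lower (median 0.84). H19, an imprinted noncoding RNA of fetal liver, was at 55.7, 9.22 and 12.9 in reprogrammed cells, against 0, 0.521 and 0.124 in untreated biliary cells. Afp, which encodes alpha-fetoprotein, was low in both, at 3.91, 4.53 and 5.96 in reprogrammed cells and 0.383, 0.556 and 0.434 in untreated biliary cells. The fetal RNA-binding protein gene Igf2bp3 and the surface proteoglycan gene Gpc3 rose by 1.69 and 1.74. Tnfrsf12a, the receptor for the ductular mitogen TWEAK, averaged 243 ± 70.5 in reprogrammed and 78.4 ± 21.8 in untreated biliary cells. H19 in DDC hepatocytes averaged 45.8, above the reprogrammed mean of 25.9.

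A minority of the p53 and cell cycle inhibitor genes were higher. Of 18 such genes, 5 rose, 0 fell and 13 were not called, and 3 rose and 1 fell with TPM as deposited. Cdkn2a, the locus of p16 and p19ARF (chromosome 4, 89274471 to 89294653), was at 7.04, 4.43 and 4.15 in reprogrammed cells, against 0.0574, 0 and 0.14 in untreated biliary cells (log2 difference 2.51, SE 0.21, adjusted p = 4.48e-06). Its neighbour Cdkn2b, the gene of p15, averaged 13.6 ± 4.29 in reprogrammed and 1.2 ± 0.343 in untreated biliary cells. Cdkn2a was near 0 in both hepatocyte groups, at 0.0709 with DDC and 0 without. The p53 targets Eda2r, Bax and Zmat3 rose by 2.39, 1.20 and 1.06. The inhibitor genes Cdkn1a, Cdkn1b, Cdkn1c and Cdkn2c were not called, with log2 differences of 0.53, -0.47, 0.23 and 0.69. Of 24 cell cycle genes only Ccne1, which encodes the G1 cyclin E, rose (log2 difference 1.81), and the proliferation marker Mki67 was at 14.2, 4.46 and 10.1 in reprogrammed cells and 3.98, 6.59 and 2.14 in untreated biliary cells, with overlap (adjusted p = 0.369). With sample weights in the fit, 9 cell cycle genes rose.

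The 12 largest falls were Mup10, Mup15, Mup19, Mup7, Mup1, Mup14, Gm21320, Mup12, Gm2083, Mup3, Mup2 and Mup9. Major urinary proteins are pheromone carriers that adult male hepatocytes secrete under growth hormone. Mup10 (chromosome 4, 60578260 to 60582199) was at 5.31, 8.05 and 0 in reprogrammed cells, against 16237, 11471 and 8448 in untreated biliary cells. Mup7 was listed at 0 in all 3 reprogrammed libraries and at 4470, 1556 and 227 in untreated biliary cells. The members are near-identical copies, so the division of reads among them is uncertain and their sum is the safer value. Over 21 Mup genes the sum was 2321, 320 and 727 in reprogrammed cells, against 46969, 29810 and 21374 in untreated biliary cells, means that differ 29.2-fold. In hepatocytes the mean sum was 3554 with DDC and 196496 without, so untreated biliary cells stood at 16.7% of untreated hepatocytes, beside the 19% median of the hepatocyte lists. Whether the biliary Mup signal comes from hepatocyte RNA was not tested.

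Slco1a1, an organic anion uptake transporter (chromosome 6, 141907282 to 141946962), was at 0.0667, 0.0652 and 0.0112 in reprogrammed cells and 85.4, 69.6 and 57.3 in untreated biliary cells (log2 difference -6.08, SE 0.16, adjusted p = 1.96e-10). It averaged 0.144 in DDC hepatocytes and 441 in untreated hepatocytes. Elovl3, Hsd3b5 and Sult2a8, chosen after their values were seen, had log2 differences of -6.81, -5.75 and -6.15. Their untreated biliary means were 16.3%, 16.3% and 15.5% of the untreated hepatocyte means. Of 19 bile acid genes, 3 rose and 3 fell, and 6 rose without reprogrammed library 1. Cyp8b1 and Cyp7b1, which shape the bile acid pool downstream and beside the classical pathway, fell to means of 9.29 and 7.72 in reprogrammed cells, against 68.7 and 57.6 in untreated biliary cells. Cyp7a1, the rate-limiting enzyme of bile acid synthesis, was at 17.5, 113 and 23.1 in reprogrammed cells and 5.65, 3.31 and 6.98 in untreated biliary cells, with no overlap. The canalicular exporters Abcb4 and Abcc2 rose by 1.87 and 1.41. In DDC and untreated hepatocytes, Cyp8b1 averaged 22.9 and 388, and Cyp7b1 averaged 13.2 and 315. In the same order, Cyp7a1 averaged 142 and 36.3, Abcb4 336 and 191, and Abcc2 278 and 248. The part of hepatocyte content in these values was not tested.

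Duct genes split in both directions. Of 24 biliary markers, 3 rose and 6 fell (median -0.43), and 17 had a negative difference. Pkhd1, the fibrocystin gene of the duct cilium, was at 37.5, 15.3 and 22.9 in reprogrammed cells, against 81.1, 85.3 and 70.8 in untreated biliary cells (log2 difference -1.70, SE 0.27, adjusted p = 0.000584). Grhl2, a transcription factor of duct barrier function, was at 8.15, 5.81 and 7.79 in reprogrammed cells and 18.5, 20.2 and 20 in untreated biliary cells. No library overlapped for either gene. The mucin gene Muc1, the progenitor surface gene Prom1 and the glutathione-cleaving enzyme gene Ggt1 had log2 differences of -1.63, -1.68 and -1.23. Among the markers that rose were Cftr and Cldn4, a tight junction claudin at 171, 232 and 336 in reprogrammed cells and 45.1, 39.9 and 82.3 in untreated biliary cells.

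Among the transport genes of the duct, 3 of 17 were higher and 3 lower (median 0.26). Cftr, the chloride channel that starts duct secretion, was at 42.4, 13.4 and 19.7 in reprogrammed cells and 7.79, 10.5 and 10.5 in untreated biliary cells, without overlap (log2 difference 1.15, adjusted p = 0.0228). Slc12a2, the chloride loader of the basolateral membrane, averaged 54 ± 22.4 in reprogrammed and 8.66 ± 1.25 in untreated biliary cells. Slc51b, a subunit of the basolateral bile acid exporter, was at 8.98, 46.4 and 29.7 in reprogrammed cells, against 0.327, 0 and 0.527 in untreated biliary cells. DDC hepatocytes averaged 71.2 for Slc51b. The sodium pump subunit Atp1b1 and the glucose carrier Slc5a1 fell, Slc5a1 to 28.6, 12.4 and 19.4 in reprogrammed cells against 127, 114 and 135 in untreated biliary cells. Sctr, the secretin receptor, overlapped and was not called, at 22.3, 9.8 and 15.3 in reprogrammed cells and 9.42, 10.7 and 9.39 in untreated biliary cells (adjusted p = 0.123).

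Primary cilium genes leaned lower, with 0 of 17 higher, 4 lower and 16 negative differences (median -0.61). Besides Pkhd1, the fallen members were the intraflagellar transport genes Ift122, Ift172 and Ift80. Ift122 averaged 7.88 ± 3.2 in reprogrammed and 20.5 ± 1.43 in untreated biliary cells. The fall of Ift80 was lost under 11 of 23 settings, and 2 falls were left in the list without reprogrammed library 2 or without untreated biliary library 2. Reprogrammed library 2, with the most hepatocyte transcripts, was the lowest of its group for Pkhd1 and Ift122, and hepatocytes hold little Pkhd1, at 2.42 with DDC. How far hepatocyte content sets these duct values was not tested.

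Immediate early genes, transcription factors induced within minutes by growth signals or by cell handling, fell in 12 of 21 cases with none higher, the lowest list median (-1.31). Fos was at 171, 167 and 165 in reprogrammed cells, against 568, 657 and 995 in untreated biliary cells (log2 difference -2.09, SE 0.26, adjusted p = 0.000105). Egr2 (chromosome 10, 67535475 to 67542188) was at 2.36, 2.16 and 2.2 in reprogrammed cells and 21.4, 18.9 and 31.3 in untreated biliary cells. Atf3, a stress-induced repressor, was at 31.2, 32 and 41 in reprogrammed cells and 153, 269 and 635 in untreated biliary cells. The reprogrammed libraries lay close together and under every untreated biliary library for all 3. Fosb, Nr4a1, Egr1, Dusp1 and Jun had log2 differences of -2.58, -2.84, -1.85, -1.60 and -1.49. Untreated biliary library 3 was the highest of the 6 for each of these 8 genes, and without it 2 members of the list were called higher. Atf3 was higher in DDC than untreated hepatocytes, by 1.65 on the log2 scale, whereas Fos and Egr1 differed there by -0.06 and -0.30. The time from liver dissociation to lysis of the sorted cells is not stated in the labels.

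Interferon response genes fell in 9 of 21 cases with none higher (median -1.04). Ifit1, an RNA-binding antiviral effector (chromosome 19, 34640871 to 34650009), was at 3.25, 2.26 and 3.88 in reprogrammed cells and 13.8, 16.4 and 36.1 in untreated biliary cells (log2 difference -2.38, SE 0.46, adjusted p = 0.00205). Isg15, which encodes a ubiquitin-like modifier, was at 16.7, 5.09 and 12.8 in reprogrammed cells and 31.1, 36 and 118 in untreated biliary cells (adjusted p = 0.0366), a call lost under 7 of 23 settings. The groups did not overlap for either gene. Irf9, a transcription factor of the interferon response, had a log2 difference of -1.40, Ifit3 of -1.90 and Ifi27l2a of -2.23. Irf1 and Irf7 overlapped between the groups, with log2 differences of -0.27 and -0.53. Untreated biliary library 3 was again the highest, and 5 falls were left without it, as were 5 without reprogrammed library 2. With both left out, 3 were left.

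The promoters of 3 fallen interferon genes are printed for the same reason as above, 160 bases before the RefSeq start on GRCm38.p6 with matches to GAAANNGAAA on either strand in capitals: chr19:34640729-34640888 on the plus strand for Ifit1, chr19:34583369-34583528 on the plus strand for Ifit3 and chr4:156200819-156200978 on the minus strand for Isg15.
Ifit1: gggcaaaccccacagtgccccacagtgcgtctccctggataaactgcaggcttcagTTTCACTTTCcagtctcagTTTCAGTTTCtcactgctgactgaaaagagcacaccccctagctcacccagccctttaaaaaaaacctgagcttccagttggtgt
Ifit3: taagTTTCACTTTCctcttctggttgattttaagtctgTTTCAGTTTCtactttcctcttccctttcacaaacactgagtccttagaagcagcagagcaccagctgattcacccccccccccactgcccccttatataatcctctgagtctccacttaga
Isg15: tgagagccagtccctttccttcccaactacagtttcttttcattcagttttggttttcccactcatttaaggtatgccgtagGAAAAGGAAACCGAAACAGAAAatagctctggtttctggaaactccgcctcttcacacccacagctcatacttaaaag

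The motif, the interferon-stimulated response element, was in the 250 bases before the start of 10 of the 16 list members with a promoter, among them 3 of the 7 that fell. It was in 2.98% of all 32851 promoters and in 3.28% of the 10618 tested genes with a promoter. In Isg15 the 3 matches overlap in 1 run.

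Genes of antigen presentation by MHC class II fell in part. Of 16 MHC genes, 4 fell and none rose (median -0.69): H2-Aa, H2-Ab1, H2-DMa and H2-DMb1. H2-DMb1, a peptide-loading chain, was at 8.28, 7.03 and 6.19 in reprogrammed cells and 22.7, 20.9 and 24.1 in untreated biliary cells. H2-Ab1 was at 30.3, 11.4 and 13 in reprogrammed cells and 66.2, 32.3 and 76 in untreated biliary cells. Cd74, the invariant chain of the same complex, did not follow, at 308, 141 and 158 in reprogrammed cells and 201, 110 and 179 in untreated biliary cells. The class I gene H2-K1 averaged 1201 ± 91.8 in reprogrammed and 1332 ± 340 in untreated biliary cells. Without untreated biliary library 3, or without reprogrammed library 2 or 3, 2 falls were left in the list.

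**Figure D3:**
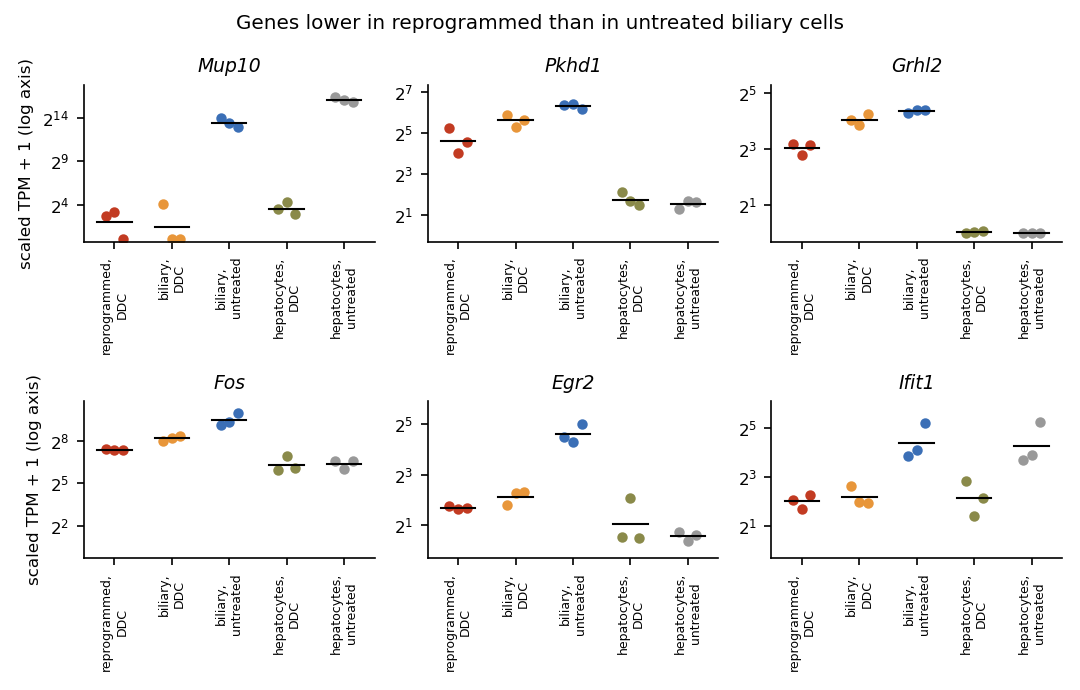
Scaled TPM + 1 on a log axis for 6 genes called lower in reprogrammed than in untreated biliary cells, 1 point per library (n = 3 per group), with the geometric mean as a bar. Mup10 is high only in the 2 untreated groups, Pkhd1 and Grhl2 are duct genes that hepatocytes hold at low levels, and Ifit1 is lower in all 3 DDC groups than in both untreated groups.

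The YAP and Notch pathways, which guide duct identity, gave 2 calls each, beside 10.9% of all tested genes called in either direction. Of 23 YAP/TAZ genes, 0 rose and 2 fell (median -0.00), while quantile normalization gave 3 higher and sample weights 4. Cyr61 was at 290, 287 and 334 in reprogrammed cells, against 986, 1007 and 1234 in untreated biliary cells, and Ankrd1 had a log2 difference of -1.24. Ctgf, another classical target, differed the other way and under the size of a call, at 287, 232 and 290 in reprogrammed cells and 137, 163 and 173 in untreated biliary cells (log2 difference 0.77, adjusted p = 0.0256). Of 12 Notch genes, 2 rose and 0 fell, whereas TPM as deposited gave 1 higher and 3 lower. The ligand gene Dll1 and the receptor-modifying Lfng rose by 1.07 and 1.83. The ligand gene Jag1 averaged 47.5 ± 8.99 in reprogrammed and 52.3 ± 5.35 in untreated biliary cells, with overlap (adjusted p = 0.492). The target Hes1 was at 85.1, 90.1 and 119 in reprogrammed cells and 190, 163 and 319 in untreated biliary cells, a log2 difference of -1.14 that missed the threshold (adjusted p = 0.0565).

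**Figure D4:**
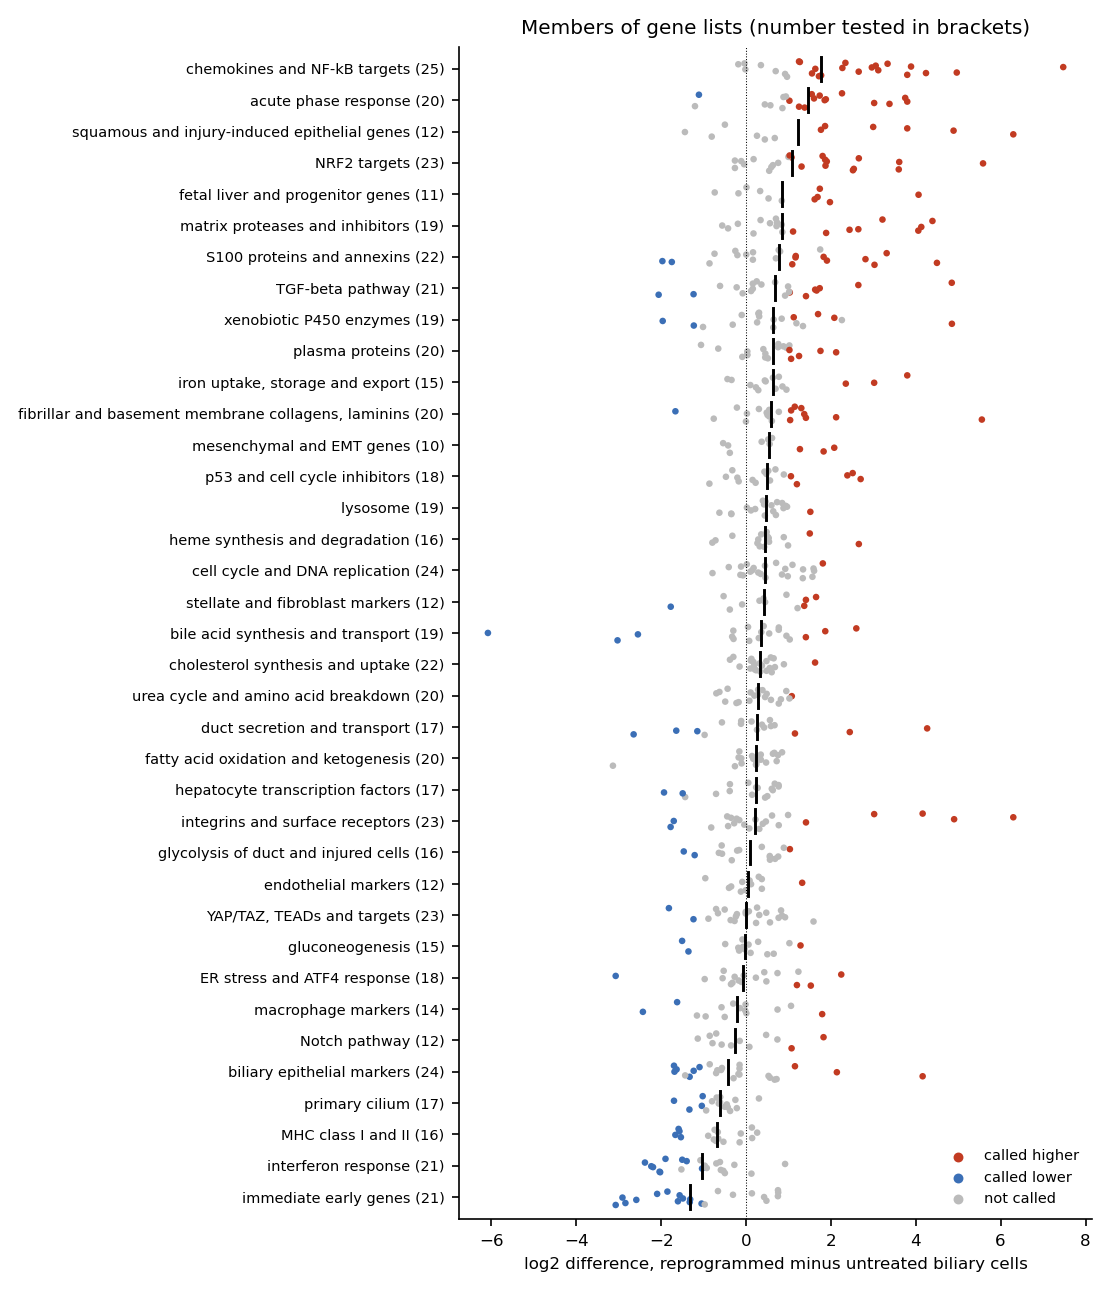
Log2 differences, reprogrammed minus untreated biliary cells, of the tested members of each gene list with 10 or more of them, 1 point per gene and a bar at the list median, ordered by median. Chemokines and NF-kB targets, acute phase, squamous and NRF2 lists stand at the top with medians of 1.77, 1.47, 1.22 and 1.07, and the interferon response and immediate early lists at the bottom with -1.04 and -1.31.

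Markers of other cell types gave calls in both directions. Of 14 macrophage markers, 1 rose and 2 fell, and the summed level of the list ran from 79.7 to 109 in reprogrammed and from 87.3 to 123 in untreated biliary cells. Lyz2, which encodes lysozyme, rose to a mean of 39.2 in reprogrammed cells, while the Kupffer cell gene Clec4f and the receptor gene Csf1r fell to means of 1.02 and 13.7, against 9.59 and 42.6 in untreated biliary cells. The pan-leukocyte gene Ptprc was between 0.388 and 0.757 in all 6 libraries. The 14 listed stellate cell and fibroblast markers, low ones included, summed to 295 to 472 in reprogrammed and 131 to 150 in untreated biliary cells, of which Rgs5, also a pericyte gene, made up 257 to 389 and 104 to 109. The 11 listed neutrophil markers, of which 4 were tested and S100a8 and S100a9 rose, summed to 15.3 to 36.2 in reprogrammed and 2.54 to 3.6 in untreated biliary cells. Of 15 lymphocyte genes 1 passed the filter, and it was not called. Of 12 endothelial markers 1 rose, Stab1, and Pecam1 and Cdh5 were under 1.5 in every library. Of 3 mesothelial markers tested, Msln rose to 35.5, 59.1 and 58.2 in reprogrammed cells, against 1.54, 2.47 and 13.2 in untreated biliary cells, Gpm6a fell, to a mean of 7.98 in reprogrammed against 53.7 in untreated biliary cells, and Upk3b was not called (log2 difference -0.59). Wt1 did not pass the filter and was under 0.4 in each of the 6 libraries. Of 4 erythroid markers, the heme synthesis gene Alas2 fell, to a mean of 4.99 in reprogrammed against 21.1 in untreated biliary cells. What these cells contribute to the differences above was not tested.

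The genes of the comparison were then placed in 2 contrasts that share no library with it. Sharing no library does not make them separate, because both groups of the comparison held hepatocyte transcripts. The part of hepatocyte content in the counts below was not tested. DDC against untreated hepatocytes showed 6.59% of all tested genes higher and 4.42% lower. Of the 776 genes that rose in reprogrammed against untreated biliary cells, 271 (34.9%) were also higher in DDC than in untreated hepatocytes and 2 were lower. Those 271 were 29.6% of the 917 genes higher in DDC hepatocytes. Of the 740 that fell, 179 (24.2%) were also lower in DDC hepatocytes, 29.1% of the 615 lower there, and 35 were higher. Nid1, Slpi and Ly6d rose in both, with log2 differences in hepatocytes of 6.51, 6.68 and 6.89. Cxcl5, Plau and Ltbp2 rose in the reprogrammed contrast but differed by only 0.34, 0.26 and 0.42 between the hepatocyte groups.

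The second such contrast, DDC biliary cells against DDC hepatocytes, tells on which side of the duct and hepatocyte divide a gene lies. It showed 20.2% of all tested genes higher and 14.4% lower. Of the 776 risen genes, 301 (38.8%) were higher in DDC biliary cells and 264 (34.0%) higher in DDC hepatocytes. Of the 740 fallen genes, 369 (49.9%) were higher in DDC biliary cells and 65 (8.78%) higher in DDC hepatocytes. The genes that rose thus lay on both sides of the divide, while more of those that fell lay on the duct side. Of the 264 rises on the hepatocyte side, 106 were also higher in DDC than in untreated hepatocytes. Of the 65 falls on that side, 59 were also lower in DDC than in untreated hepatocytes.

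Values against DDC biliary cells share libraries with the comparison above and are given side by side. Mmp7 was 4.06 higher on the log2 scale in reprogrammed cells and 5.27 higher in DDC biliary cells, both over untreated biliary cells, and reprogrammed cells lay 1.21 under DDC biliary cells (adjusted p = 0.0032). Ccl2 was 7.48 higher in reprogrammed and 7.64 higher in DDC biliary cells, and the 2 groups under DDC were not called apart (adjusted p = 0.86). Epcam and Krt19 were lower in reprogrammed than in DDC biliary cells, at means of 265 and 264 against 477 and 557 (adjusted p = 0.003 and 0.012). Spink1 and Nid1 stood higher in reprogrammed than in DDC biliary cells, by 2.48 (adjusted p = 0.021) and 0.99 (adjusted p = 0.019), of which only the difference of Spink1 counts as a call. Cdh2 was higher in reprogrammed than in DDC biliary cells by 1.19 (adjusted p = 0.00014), with 68.2 in DDC hepatocytes.

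**Figure D5:**
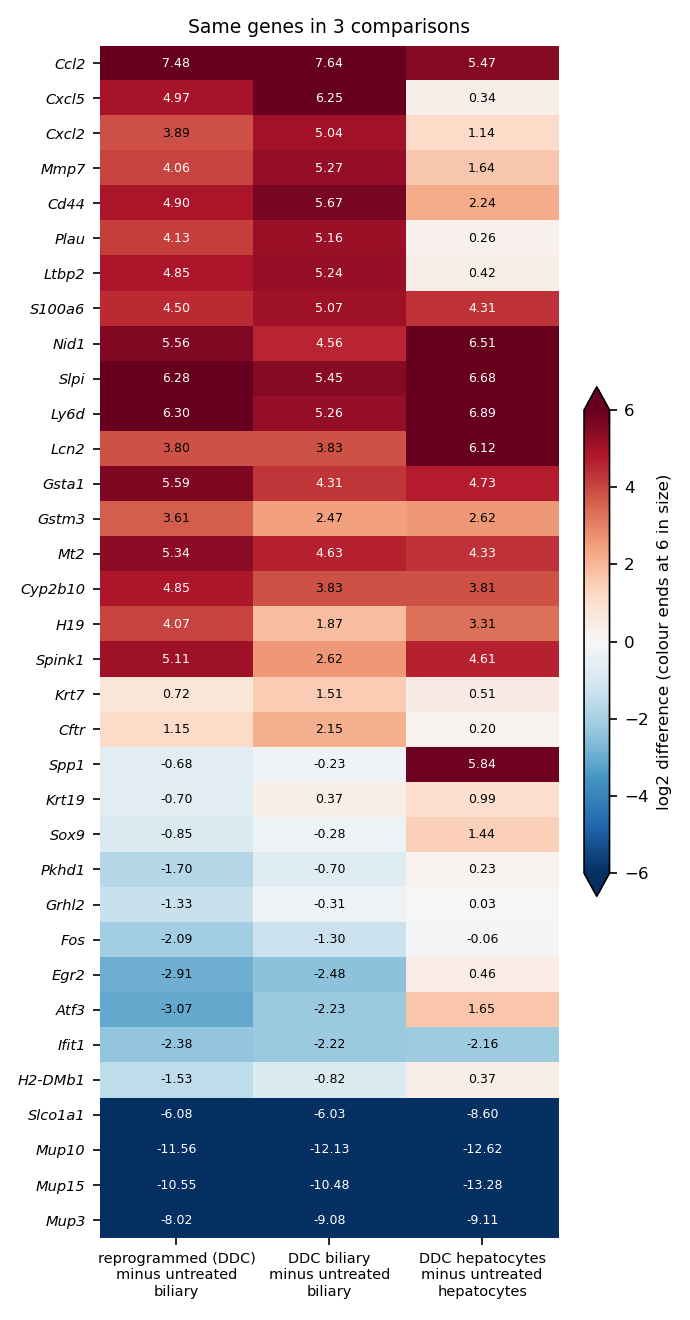
Log2 differences of 34 genes, chosen after their values were seen, in 3 comparisons from left to right: reprogrammed minus untreated biliary cells, DDC biliary minus untreated biliary cells, and DDC minus untreated hepatocytes. The first 2 columns share the untreated biliary libraries. Ccl2 is 7.48, 7.64 and 5.47 across the row, Cxcl5 is 4.97, 6.25 and 0.34, and Mup10 is -11.56, -12.13 and -12.62.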

How the data were processed

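RNA from sorted mouse liver cells was sequenced in 15 libraries, 5 groups of 3, of which 3 reprogrammed and 3 untreated biliary libraries form the comparison. The deposited values are TPM, computed by the authors with Salmon on mm10, per the submitters' processing notes; its version was not among those notes. Each library was matched to its group by its title.

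Genes at 1 TPM or more in at least 3 libraries were kept, 13905 of 24493. Every library was divided by the median of its ratios to the geometric mean over 11924 genes detected in all of them. Groups were compared in limma 3.58.1 (R 4.3.3) on log2(scaled TPM + 1), in 1 model of the 5 groups that leaves 10 residual degrees of freedom, with variances moderated along a trend. Members and gene lists were chosen with earlier results of these data known, so lists are described by counts and medians only. Named genes were the 12 largest rises and the 12 largest falls at 10 scaled TPM or more without overlap, up to 4 called members of each of 43 lists and a fixed set of markers. Genes outside this rule are marked as picked on their values, or complete the account of a list. On simulated data for this comparison with 13353 genes, 96 of 100 changes of 2 and 95 of 100 changes of 3 on the log2 scale were recovered, with 2 false calls. The changed genes were drawn from those with a mean log2 level over 3. Each gene otherwise had the same mean in all groups and independent normal noise. Changes of genes near the floor and hepatocyte content that differs by library were not simulated, so these rates do not carry over to the real libraries.

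Positions came from GENCODE M21 on GRCm38 and promoters from RefSeq on GRCm38.p6. Alternatives covered scaling, pseudocount, filter, libraries in the fit, weights, moderation, the replicate block, the call rule and each library left out. A further 3 were added after seeing the data: small and ribosomal RNA genes left out, hepatocyte genes left out, and reprogrammed library 2 together with untreated biliary library 3 left out. Tables were built in Python 3.11.15 with pandas 2.3.3 and figures drawn with matplotlib 3.10.9. A few named genes are left out of the text and not reported here.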

Additional observations from a re-analysis of the deposited data

How the results depend on the processing

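No call of the comparison reversed under any of the 23 alternatives. TPM as deposited gave 1217 lower genes, a pseudocount of 5 gave 382 higher and 354 lower, and the adjusted p alone gave 2183 higher and 2365 lower. The other alternatives stayed within 1.5 times of 776 and 740. Leaving out 1 library gave 661 to 912 higher and 594 to 1002 lower genes, with 594 lower without reprogrammed library 2 and 1002 without reprogrammed library 1. Leaving out reprogrammed library 2 and untreated biliary library 3 together gave 707 higher and 551 lower. Same-number correlations of deviations between reprogrammed and untreated biliary libraries were -0.089, -0.093 and -0.0085. So few values cannot exclude a shared batch or day. Under DDC, library 1 held the highest Mup sum of its group in reprogrammed cells (2321), biliary cells (1844) and hepatocytes (9032). Whether same-number libraries share a mouse is not stated, and the main fit, with its contrasts among DDC groups, does not pair them. The replicate block gave 807 higher and 773 lower genes in the fit of all libraries and 644 higher and 635 lower in the fit of the 6, where 22 of the 131 called named genes lost their call. By list, that 6-library block left 7 acute phase and no plasma protein rises. TPM hold no counts, so which low genes lie under the detection limit of these libraries is unknown.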

Other observations

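Single genes of iron and heme handling were higher in the reprogrammed cells. Of 15 iron genes, 3 rose, 0 fell and 12 were not called (median log2 difference 0.63), namely Hamp, Lcn2 and Steap4. Steap4, a metalloreductase, was at 76.4, 72.2 and 65.3 in reprogrammed cells, against 15.1, 13.8 and 10.9 in untreated biliary cells (log2 difference 2.35, SE 0.31, limma adjusted p = 0.000137). Of 16 heme genes, 2 rose, 0 fell and 14 were not called (median 0.46). Alas1, which catalyses the first step of heme synthesis, was at 93.5, 196 and 123 in reprogrammed cells and 37.3, 63.9 and 39.5 in untreated biliary cells, and the second gene was Hmox1. DDC hepatocytes averaged 172 for Steap4 and 378 for Alas1, above the reprogrammed values, and the part of hepatocyte content was not tested.

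Stress, mesenchymal and metabolic lists gave the calls below, beside 5.58% of all tested genes higher and 5.32% lower. Of 18 ER stress and ATF4 genes, 3 rose (Asns, Psat1 and Fgf21) and 1 fell (Atf3). Psat1, an enzyme of serine synthesis, was at 5.73, 3.75 and 5.76 in reprogrammed cells, against 1.58, 1.59 and 1.66 in untreated biliary cells. It averaged 0.901 in DDC hepatocytes, under the reprogrammed values. Of 10 mesenchymal genes, 3 rose (Vim, S100a4 and Cdh2) and 0 fell. Vim, which encodes the intermediate filament vimentin, was at 84.2, 36 and 79.9 in reprogrammed cells and 9.43, 20.4 and 14.1 in untreated biliary cells, against 10.6 in DDC hepatocytes. Of 16 glycolysis genes, Ldha rose and Pfkp and Pfkfb3 fell, and Ldha was not called with TPM as deposited or with quantile normalization, nor without untreated biliary library 3 or reprogrammed library 2 or 3. Of 22 cholesterol genes 1 rose, and of 19 lysosome genes Ctsl rose. Of 17 hepatocyte transcription factors 2 fell, Prox1 and Nr0b2, and of 8 structural RNA genes none was called. Prox1 was at 48.5, 32.4 and 30.7 in reprogrammed cells and 117, 116 and 83.3 in untreated biliary cells.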
